A study of Rattus norvegicus with 10 samples.

Results

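The transcripts of the cytosolic ribosomal proteins were read in rat skeletal muscle after mild calorie restriction (CR). The genes were taken from the annotation of the array platform as those whose symbol starts with Rpl or Rps and a digit, or with Rplp, leaving out the Rps6k kinases and pseudogenes. Probe sets that carry a single gene were used, and where a gene had several, the one with the highest mean signal stood for it. This gave 47 of the 14218 genes with such a probe set. A further 27 ribosomal protein genes were carried only by probe sets that list several genes, among them related copies, and these 36 probe sets were read only as context.

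RNA came from the gastrocnemius of male Wistar rats that were 6 weeks of age at the start and ate a powdered purified diet. Control rats received the full recorded intake, and the other groups received 5%, 10%, 20% or 30% less, for 1 week or 1 month, before an overnight fast of 16 h. All 10 groups therefore shared strain, sex, diet type and fast. Each group was 1 array of RNA pooled from 5 rats, so that no spread between animals is in the data, and duration cannot be told apart from age or from the batch of arrays. A second line in the labels of the 1-week control and of the 1-week 5% CR array gives the opposite feeding to the title, and the titles were followed here. An exchange of these arrays brought no call among the ribosomal proteins in any comparison.

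A ribosome consists of a small and a large subunit, in which ribosomal proteins, written Rps and Rpl, surround the ribosomal RNA. The acidic stalk proteins, written Rplp, recruit elongation factors. The mRNAs of most of these proteins start with a cytosine and a run of pyrimidines, the terminal oligopyrimidine (TOP) motif, through which their translation is controlled by the growth and nutrient kinase mTORC1. Muscle is a major store of body protein, and it also expresses Rpl3l, a muscle form of the large subunit protein Rpl3.

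Sequence around the start of transcription is shown for members that the results below turn on and for members with the plainest pyrimidine runs. Each line gives 30 bases, 15 before the start and 15 from it, on the strand of the gene, from the RefSeq promoter table of build GRCr8. Capitals mark CTTTC, the short pyrimidine run that was searched on both strands.

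Rpl19 (chr10:83519049-83519078, plus strand): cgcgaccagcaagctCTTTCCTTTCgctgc
Rps23 (chr2:23814502-23814531, plus strand): tgggtccttcctgcctctcttctctCTTTC
Rpl27a (chr1:172974558-172974587, plus strand): cgagacttggtgggctcctccctCTTTCtt
Rpl22 (chr5:168117946-168117975, plus strand): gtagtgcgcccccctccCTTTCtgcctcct
Rpl35a (chr11:81235007-81235036, minus strand): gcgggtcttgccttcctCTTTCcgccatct
Rpl12 (chr3:36661925-36661954, plus strand): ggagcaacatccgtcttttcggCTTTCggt
Rplp0 (chr12:46718376-46718405, minus strand): gaccgcaccgcacttctctcgccaggcgtc
Rpl3 (chr7:113507976-113508005, minus strand): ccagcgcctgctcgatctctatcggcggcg
Rpl3l (chr10:14258431-14258460, plus strand): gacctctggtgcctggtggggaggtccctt

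Of the 47 genes, 42 had an entry in the promoter table. CTTTC or its reverse complement was found in 14 of these 42 windows, or 33.3%, against 7.32% of all 33469 promoters in the table. All 14 matches were on the strand of the gene, where the share over all promoters was 3.59%. The median share of pyrimidines in the 15 bases from the start was 60%, against 46.7% over all promoters. The window of Rpl3l did not hold the run, and 46.7% of its 15 bases from the start were pyrimidines. A start site in the table can lie some bases from the one used in muscle, and these letters are a description of the windows only.

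The deposited values were scaled to 1 level within a duration, with a trimmed mean signal of 99.64 for all arrays of 1 week and of 86.44 for all those of 1 month. Fast muscle fibre markers had a summed signal of 63000 to 102000 and all 10 measured passed the filter on low signal, whereas 0 of 5 measured lymphocyte markers did. Slow fibre markers summed to 2810 on the 1-week control array and to 5420 to 13200 on the other 9 arrays. The 18 probe sets for spiked hybridization controls stood at 0.94 to 1.01 of the control array at 1 week, and at 0.541 to 0.732 at 1 month. The 3' to 5' signal ratio of Gapdh, a sign of RNA integrity, lay between 1.02 and 1.08 on all 10 arrays. That of beta-actin was less even. At 1 week it ran from 1.24 on the 30% CR array to 1.7 on the control array, and at 1 month from 1.37 to 1.6.

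Ribosomal protein transcripts were among the brightest on these arrays. The brightest probe sets of the 47 genes made up 2.51% to 2.81% of all signal, and their sum ran from 107000 on the 5% CR 1-month array to 149000 on the 30% CR 1-week array. Of the 47 members, 43 passed the filter, which kept probe sets with a mean log2 signal at or above the median, equal to a signal of 17.8. Rps4y2, with a mean signal of 23, was the member just inside this limit, and Rpl39l1, with 14.8, the one just outside. The members not tested were Rpl39l1, Rpl30, Rpl28 and Rps13. Over the 10 arrays the signal ran from 9.8 to 22.3 for Rpl39l1, from 7.8 to 19 for Rpl30, from 3.3 to 13.2 for Rpl28 and from 1.1 to 8.7 for Rps13, with overlap between the durations in each. For Rpl28, Rpl30 and Rps13, a probe set that also lists related copies passed the filter, so that the dim single-gene probe set is no measure of whether the gene is transcribed. Of the 43 tested members, 38 had a mean log2 signal above 9, and the 5 below were Rpl7l1, Rps27l, Rpl39, Rpl26l1 and Rps4y2.

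The first comparison asks whether ribosomal protein transcripts differ between restricted rats and controls given the full recorded intake. The 8 restricted arrays were compared as a set with the 2 control arrays in a model that also held the duration. In limma, 0 of 43 members passed an adjusted p of 0.05, against 2% of the 15521 probe sets tested. An unadjusted p under 0.05 was found for 2 members, or 4.65%, against 14.2% of all probe sets tested. The median estimate of the members was -0.05 on the log2 scale, against -0.01 over all probe sets tested and -0.05 over 131 other probe sets in the same range of signal. The estimates of the 38 brighter members lay between -0.18 and 0.06. Their 95% intervals reached from -0.35 to 0.27, and for 29 of the 43 members the whole interval lay within 1.2-fold of control, for 40 within 1.5-fold. Within these limits lay 77 and 126 of the 131 probe sets in the same range of signal, and 2034 and 10121 of all 15521. In pooled muscle, fewer cells of a type and less RNA per cell cannot be told apart.

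**Figure D1:**
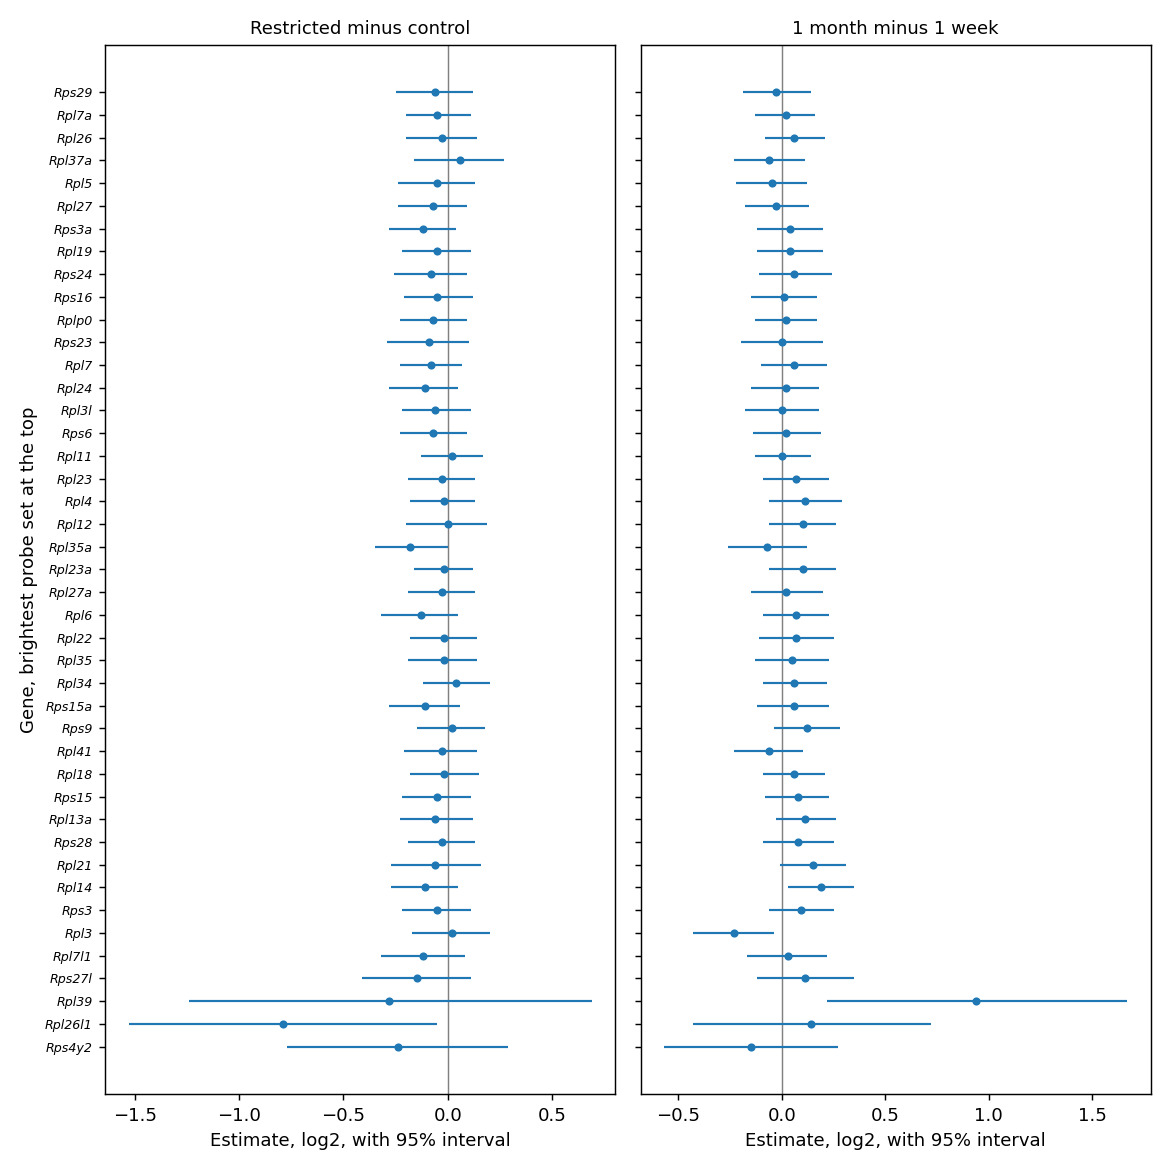
Log2 estimates (points) with 95% intervals (lines) from limma for the 43 tested members, ordered from the brightest probe set at the top; the left panel shows the 8 restricted arrays minus the 2 controls and the right panel 1 month minus 1 week on array-median-centred values. In the left panel the 38 brighter members lie between -0.18 and 0.06, and the widest intervals belong to the dim probe sets of Rpl39, Rpl26l1 and Rps4y2.

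Rplp0, the stalk protein that anchors the acidic proteins to the ribosome, is often used as a reference gene. Its signal at 1 week was 3995.7 in the control and 4070.3, 4122.6, 4154.7 and 4280.4 at 5%, 10%, 20% and 30% CR. At 1 month it was 3794.4 in the control and 3068, 3320.4, 3436.5 and 3432.8 at these levels. All 4 restricted arrays thus lay above the control at 1 week and below it at 1 month. Over both durations the estimate was -0.07 ± 0.07 (SE), with an adjusted p of 0.731 in limma.

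Rps6, the protein of the small subunit that S6 kinases phosphorylate, showed signals of 3800.4 in the 1-week control and 3743.5, 3724.4, 3870.1 and 4213.7 with increasing CR. At 1 month the control gave 3518.7 and the restricted arrays gave 2936.3, 3148.6, 3201 and 3271.4. The estimate was -0.07 ± 0.07, with an adjusted p of 0.746 in limma. The 1-week arrays lay on either side of their control, whereas the 1-month arrays were all below theirs.

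The members with the smallest p in this comparison were Rpl26l1, Rpl35a, Rps3a and Rpl6. Rpl35a, a large subunit protein whose gene is mutated in some patients with Diamond-Blackfan anaemia, had signals of 3745.7 in the 1-week control and 3476.1, 3295.9, 3579.8 and 4010.6 with increasing CR. At 1 month the control gave 3299.6 and the restricted arrays 2551.3, 2625.1, 2812 and 2815.2. Its estimate was -0.18 ± 0.08, with an adjusted p of 0.34 in limma. Only the 30% CR array at 1 week lay above its control.

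Rps3a, a small subunit protein, was below control on all 8 restricted arrays, with log2 ratios between -0.32 and -0.05 and an estimate of -0.12 ± 0.07 (adjusted p of 0.5 in limma). Rpl6, a large subunit protein, gave an estimate of -0.13 ± 0.09 (adjusted p of 0.537 in limma). Its ratios at 1 month were -0.4, -0.33, -0.15 and -0.25, and those at 1 week lay on both sides of 0. Rpl26l1, a paralog of Rpl26, had the largest estimate, -0.79 ± 0.35 (adjusted p of 0.314 in limma), on a dim probe set whose signal ran from 11.8 to 54.4. The brighter Rpl26 itself stood at -0.03 ± 0.08.

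A count of members by size needs no test. A log2 ratio of 0.25 or more, in one direction through all 4 levels, was reached at 1 week by 1 member, Rpl39, which was lower, against 11.2% of all probe sets tested. At 1 month it was reached by 2 members, Rpl26l1 and Rps4y2, both lower, against 13.7%. Below control at all 4 levels, whatever the size, were 4 members at 1 week, against 22% of all probe sets tested, and 24 at 1 month, against 28.1%. In contrast, 17 of 43 members, or 39.5%, stayed under 0.25 in all 8 comparisons, against 13% of all probe sets and 38.9% of those in the same range of signal. Under 0.5, these shares were 93% of members, 89.3% of the equally bright probe sets and 51.3% of all probe sets.

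The median ratio of the members differed between the arrays. The median log2 ratio of the 43 members at 1 week was -0.06 at 5% CR, -0.03 at 10%, 0.02 at 20% and 0.08 at 30%. At 1 month it was -0.25, -0.14, -0.09 and -0.02 at the same levels. The other probe sets of the same range of signal had medians of -0.01, 0.03, 0.01 and 0.06 at 1 week and of -0.21, -0.12, -0.1 and -0.07 at 1 month, and all probe sets tested stayed between -0.02 and 0.02. The shift below control at 1 month was therefore shared by bright probe sets of other genes.

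**Figure D2:**
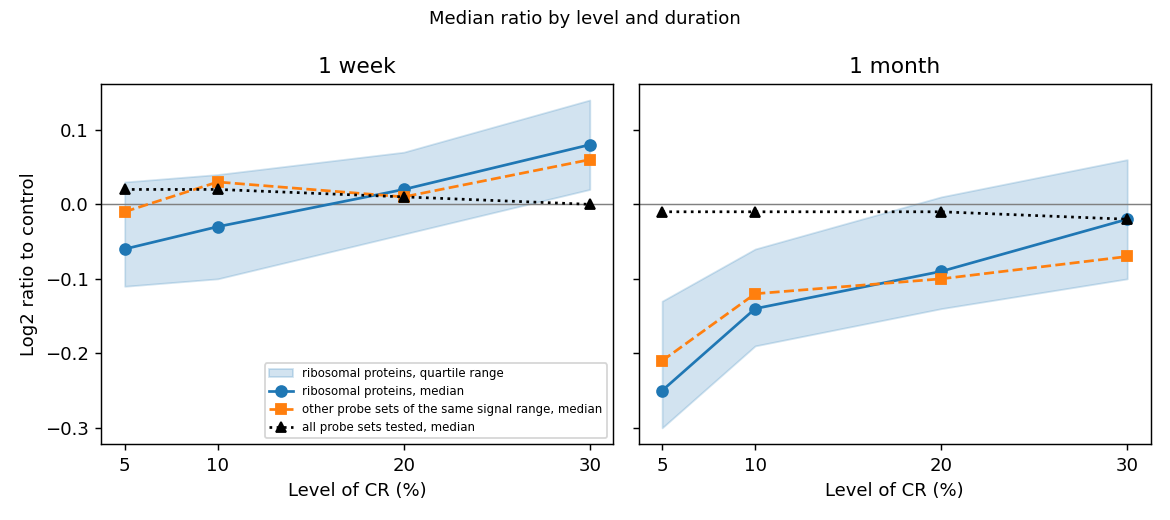
Median log2 ratio, restricted over control within a duration (vertical axis), by level of CR in percent (horizontal axis) at 1 week and 1 month; circles show the 43 ribosomal protein members with their quartile range shaded, squares 131 other probe sets of the same signal range, and triangles all probe sets tested. The members reach -0.25 at 5% CR at 1 month, where the equally bright probe sets are at -0.21.

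At 5% CR for 1 month, 42 of 43 members were below control and Rpl39 was above it. Below control were also 88.5% of the equally bright probe sets, whose median was -0.21, and 51.4% of all probe sets tested. A log2 ratio of -0.25 or lower was found for 21 members, against 23.2% of all probe sets tested. The hybridization controls on this array stood at 0.541 of the control array, the lowest of the 10 arrays, and the fast fibre markers at 63000 were also the lowest; their part in the result was not tested. With quantile normalization the median of the members at this level was -0.01, and with cyclic loess -0.12. Within 1 month alone, with 1 control array, the median estimate of the members was -0.14. It was -0.13 for the equally bright probe sets and -0.02 over all probe sets tested. Within 1 week alone, also with 1 control array, these medians were 0.01, 0.02 and 0.

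**Figure D3:**
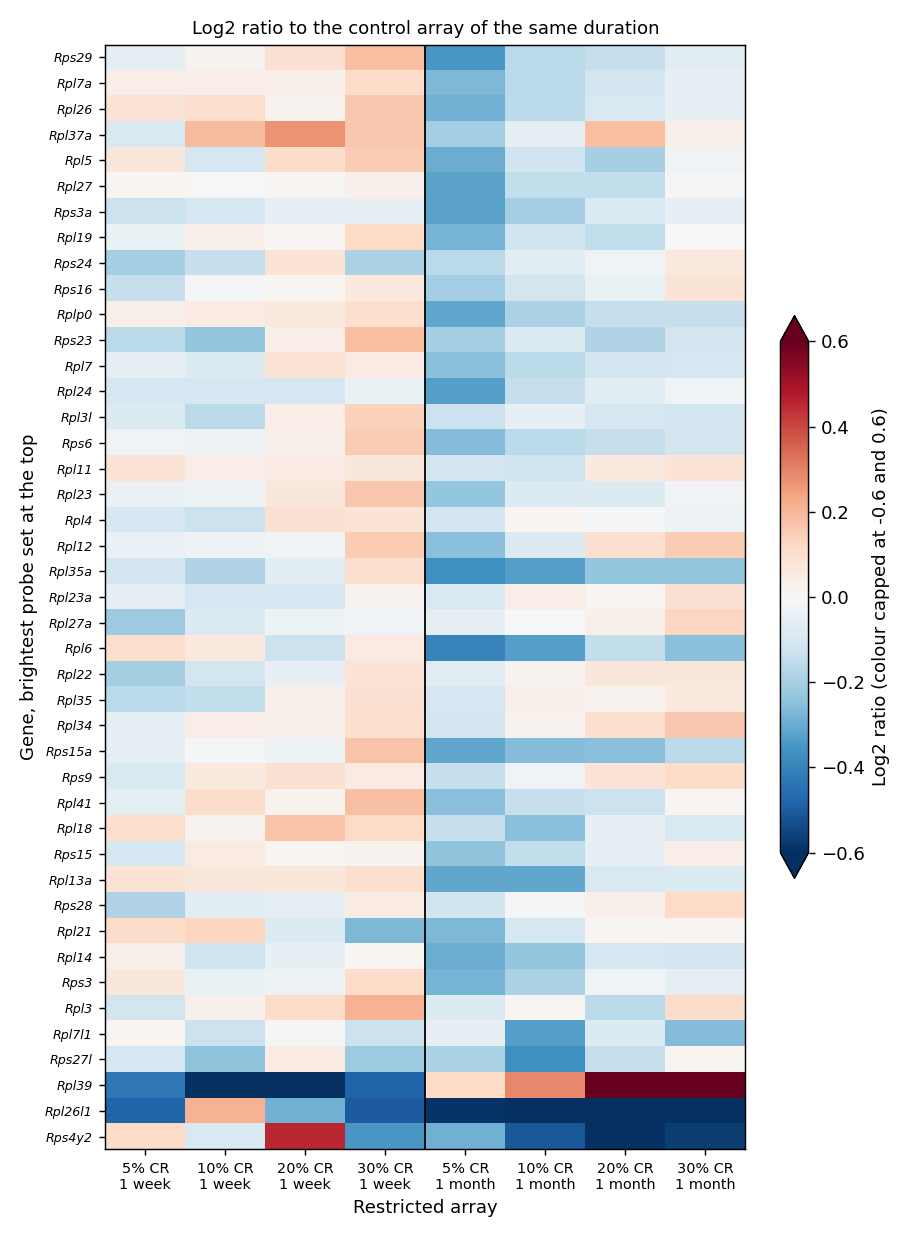
Log2 ratio of each restricted array to the control of its duration for the 43 tested members (rows, brightest probe set at the top) in 8 comparisons (columns); red is higher and blue lower than control, and colours are capped at -0.6 and 0.6. The column of 5% CR at 1 month is blue for every member except Rpl39, and the rows that depart from the others are the dim probe sets at the bottom.

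After the mean of each duration was removed, the median Pearson correlation between pairs of the 38 brighter members over the 10 arrays was 0.61. On the same deposited scaling it was 0.35 between pairs of the 131 equally bright probe sets. After cyclic loess it was 0.32 for the members, and no such value was taken for the equally bright probe sets. These values share arrays and scaling and are given as a description. The residual SD around the dose model had a median of 0.094 for the members, 0.094 for the equally bright probe sets and 0.181 over all probe sets tested.

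The next comparison asks whether the transcripts follow the level of CR. Over all 10 arrays, 0 of 43 members passed in limma, against 2% of all probe sets tested. An unadjusted p under 0.05 was found for 3 members, or 6.98%, against 14.5% of the equally bright probe sets and 14.3% of all. The median slope was 0.02 log2 per 10 percentage points of restriction, with 38 of 43 slopes above 0, against a median of 0.02 and 67.2% above 0 for the equally bright probe sets and a median of 0 and 48.3% above 0 over all probe sets. The 95% interval of 40 of 43 members lay within 1.2-fold per 10 percentage points, as did that of 127 of 131 equally bright probe sets and 12017 of all 15521.

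The members with the smallest p for the slope were Rpl12, Rpl34, Rpl37a and Rpl3. Rpl12, which binds at the base of the stalk, had signals at 1 month of 3060.2 in the control and 2568.2, 2886.3, 3277 and 3391 with increasing CR. At 1 week they were 3432.5 in the control and 3328.6, 3361.4, 3393.2 and 3799. In both durations the 5% CR array was the lowest of the 5 and the 30% CR array the highest. The slope was 0.07 ± 0.03, with an adjusted p of 0.265 in limma. Rpl34 (0.06 ± 0.02), Rpl37a (0.07 ± 0.03) and Rpl3 (0.06 ± 0.03), all of the large subunit, had adjusted p-values of 0.291, 0.341 and 0.405 in limma.

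Among the 8 restricted arrays alone, the order by level was plainer. The slope was above 0 for 37 of 43 members at 1 week and for 39 at 1 month, and for 36 of them, or 83.7%, at both. The share with both slopes above 0 was 60.3% for the equally bright probe sets and 22.9% for all probe sets tested. In limma, 0 of 43 members passed, against 0.245% of all probe sets, but 24, or 55.8%, had an unadjusted p under 0.05, against 30.5% of the equally bright probe sets and 10.4% of all probe sets tested. The median slope was 0.07 per 10 percentage points, with 0.04 for the equally bright probe sets, and the lowest adjusted p was 0.138, that of Rpl12 (0.11 ± 0.03). After quantile normalization, 18 members, or 41.9%, had both slopes above 0, and 3 had an unadjusted p under 0.05. After cyclic loess these counts were 22, or 51.2%, and 6. The equally bright probe sets had both slopes above 0 in 22.1% and 33.6% under these normalizations. After centring on array medians 36 members, or 83.7%, had both slopes above 0, against 59.5% of the equally bright probe sets. The count of members that followed the level among the restricted arrays was thus lower under quantile and loess normalization and the same after centring.

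The third comparison sets 1 month against 1 week, on values centred on the median of each array, with the level of CR as a covariate. In limma, 0 of 43 members passed, against 8.79% of all probe sets tested. An unadjusted p under 0.05 was found for 3 members, or 6.98%, against 22.9% of the equally bright probe sets and 24.8% of all. The median estimate was 0.06, against 0.08 over all probe sets. The interval of 33 of 43 members lay within 1.2-fold, as did that of 77 of 131 equally bright probe sets and 1544 of all 15521. On the deposited scaling, which is lower at 1 month by a median of -0.21 over all probe sets, the median of the members was -0.24 and 37 of 43 fell, with 33.9% of all probe sets called. The direction of the module between durations therefore rested on the scaling, and its distance from the median of all probe sets was small on both scales.

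Within the module, Rpl3 had the lowest estimate for duration. Rpl3 is the large subunit protein that lies near the peptidyl transferase centre, and in muscle Rpl3l can take its place. The signal of Rpl3 was 939.5, 869.7, 958.5, 1012.4 and 1088.1 from the control to 30% CR at 1 week, and 684.8, 648.2, 688.7, 614.6 and 739.3 at 1 month. All 5 arrays of 1 month lay below all 5 of 1 week on this scale. The signal of Rpl3l was 4025.8, 3802.8, 3612.5, 4150.9 and 4426.5 at 1 week and 3452.1, 3146.8, 3329.4, 3211.5 and 3196 at 1 month, with no overlap either. The deposited scaling is lower at 1 month, and this separation was not particular to Rpl3 and Rpl3l. Rps29, Rpl7a, Rpl26, Rps6 and Rplp0, among others, also had no overlap, whereas Rpl6, Rpl13a and Rpl14, among others, did overlap.

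On centred values, the estimate of Rpl3 was -0.23 ± 0.09, the lowest of the 43, with an adjusted p of 0.122 in limma, and that of Rpl3l was 0 ± 0.09. Rpl3 fell at 1 month with quantile normalization (-0.33, adjusted p of 0.00253 in limma) and with cyclic loess (-0.32, adjusted p of 0.00293). On the deposited scaling it fell by 0.53 (-0.53, adjusted p of 5.16e-05 in limma). The estimate of Rpl3 was below 0 under all 4 scalings, but on centred values the levels were uneven. There, 1 month minus 1 week was -0.33 in the control, 0.03 at 5% CR, -0.02 at 10%, -0.49 at 20% and -0.36 at 30%.

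The difference between the log2 signals of Rpl3 and Rpl3l on the same array is not changed when all signals of that array are multiplied by 1 factor. From control to 30% CR it was -2.1, -2.13, -1.91, -2.04 and -2.02 at 1 week and -2.33, -2.28, -2.27, -2.39 and -2.11 at 1 month. Rpl3 was lower relative to Rpl3l at 1 month at 5 of 5 levels, by a mean of -0.24, which is 0.849-fold (SD 0.08 at 1 week and 0.1 at 1 month, n = 5 and 5). The 5 arrays of a duration differ in level of CR and are not replicates of 1 group. Rpl3 was looked at because its estimate for duration was the lowest of the 43, so these differences are a description and carry no test.

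Against the median of the other members, Rpl3 was lower at 1 month by a mean of -0.28 at 5 of 5 levels. For Rpl3l against the other members the mean difference was -0.03, lower at 3 of 5 levels. A ratio within an array shows unequal change of the probe set signals compared and does not show which of them changed. A dimmer Rpl3 probe set, with a mean signal of 62.9, gave 0.05 ± 0.17 on centred values (adjusted p of 0.885 in limma), and the mean of both probe sets gave -0.09.

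**Figure D4:**
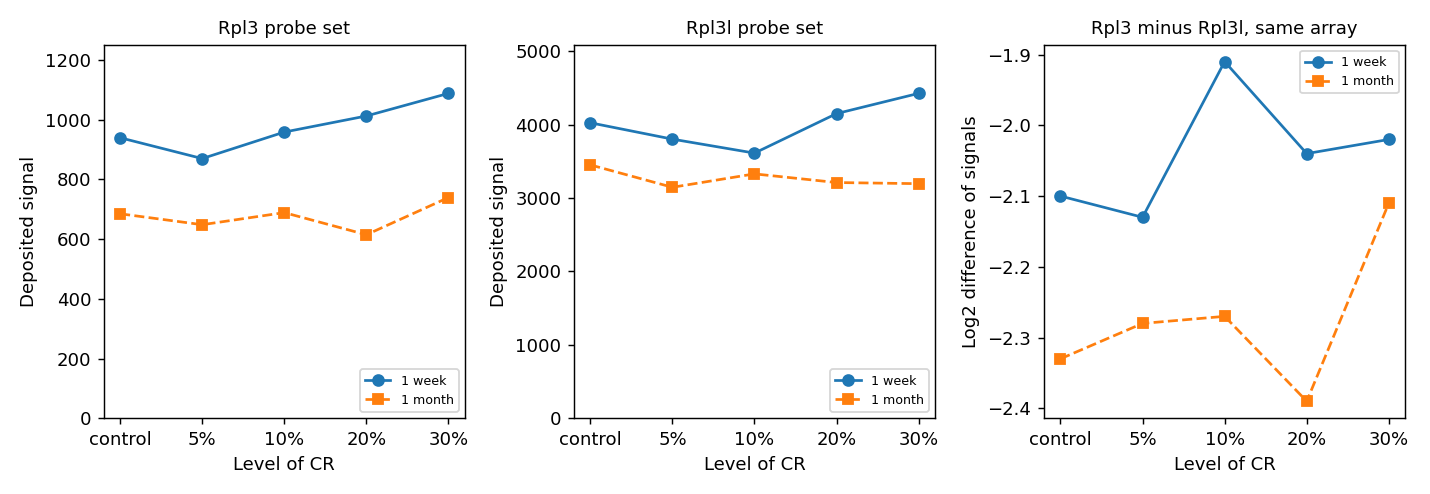
Deposited signal of the Rpl3 and Rpl3l probe sets by level of CR (left and middle panels, axes from 0) and the log2 difference Rpl3 minus Rpl3l on the same array (right panel, axis not from 0), with circles for 1 week and squares for 1 month and 1 array per point. The difference runs from -2.13 to -1.91 at 1 week and from -2.39 to -2.11 at 1 month. Levels of different probe sets are not comparable, so only the change between arrays can be read.

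The other members with an unadjusted p under 0.05 for duration were Rpl14 and Rpl39. Rpl14, a large subunit protein named after its values were seen, gave 0.19 ± 0.08 (adjusted p of 0.129 in limma). It was higher at 1 month at all 5 levels on centred values, by 0.1 to 0.37. Its deposited signal from control to 30% CR was 1967.3, 2003.5, 1811.6, 1903.8 and 1979.1 at 1 week. At 1 month it was 1993.9, 1617.8, 1702.6, 1862.9 and 1841.8, so on that scaling only the control was higher at 1 month. Rpl39, a small protein lining the exit tunnel, was read by a dim probe set. Its signal was 55.7, 41.3, 10.4, 24.7 and 40 from control to 30% CR at 1 week and 34.1, 37, 41.7, 64.9 and 66.2 at 1 month. All 4 restricted arrays were below control at 1 week and above it at 1 month. The estimate for duration was 0.94 ± 0.34 (adjusted p of 0.0955 in limma), and with single arrays left out it ran from 0.55 without the 10% CR array of 1 week (adjusted p of 0.186), which had the signal of 10.4, to 1.3 without the 1-week control array, where it passed (adjusted p of 0.0135).

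A gene could differ between its probe sets. Rpl7, a large subunit protein, was flat on its bright probe set (0.06 ± 0.08 for duration). Its dimmer probe set, with a mean signal of 35.3, fell at 1 month (-0.74 ± 0.16, adjusted p of 0.00868 in limma). This probe set was named after its values were seen, and the mean of both gave -0.34, with an adjusted p of 0.0312. Rpl7l1 was at 0.03 ± 0.09 on its brighter and 0.07 ± 0.13 on its dimmer probe set. Rps27l, a paralog of Rps27 known as a target of p53, was at 0.11 ± 0.11 for duration and -0.15 ± 0.12 for restricted against control. Rpl22, an RNA-binding protein of the large subunit, was at 0.07 ± 0.08 and -0.02 ± 0.08.

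Whether the difference from control changed between the durations was tested as an interaction. In limma, 0 of 43 members passed, against 0% of all probe sets tested, and 0 members had an unadjusted p under 0.05. The median estimate was -0.12, against -0.14 for the equally bright probe sets and -0.02 over all. The direction turned with the scaling, to 0.07 with quantile normalization and 0.09 after centring on array medians. The members with the smallest p were Rpl39 (1.7 ± 0.82), Rplp0 (-0.25 ± 0.12), Rpl6 (-0.3 ± 0.15) and Rpl13a (-0.28 ± 0.15), with adjusted p-values of 0.702, 0.707, 0.73 and 0.743 in limma. Each duration has 1 control array, and intervals were wide, with 37 of 43 within 1.5-fold and 0 within 1.2-fold.

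The 5 brightest members had small estimates for restricted against control and for duration. Rps29, a small protein of the small subunit with the highest mean signal (7060), stood at -0.06 ± 0.09 for restricted against control and -0.03 ± 0.08 for duration. Rpl7a, Rpl26, Rpl37a and Rpl5 lay between -0.05 and 0.06 for restricted against control and between -0.06 and 0.06 for duration. Rpl5, which binds the 5S ribosomal RNA together with Rpl11, was at -0.05 ± 0.09 and -0.05 ± 0.08. Rpl37a departed from the other 4 at 20% CR for 1 month, where its log2 ratio was 0.18 and theirs lay between -0.2 and -0.09. None of these 5 differed from control by more than 0.35 in size in any of the 8 ratios.

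The probe sets that list several ribosomal genes gave a like picture. Of 36, 35 passed the filter. Their median log2 ratio ran from -0.05 to 0.08 over the 1-week comparisons and from -0.27 at 5% CR to -0.02 at 30% CR at 1 month. In limma, 0 of 35 passed for restricted against control, the slope, duration or the interaction, with 0, 2, 2 and 4 at an unadjusted p under 0.05. These were 0%, 5.71%, 5.71% and 11.4% of the 35, against 14.2%, 14.3%, 24.8% and 7.22% of all probe sets tested. The probe set listing the stalk protein Rplp1 with its copies was at -0.1 ± 0.1 for restricted against control, and that listing Rps27 at -0.03 ± 0.1. Related copies cannot be separated on such probe sets.

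Other genes of the translation machinery were read from lists of their names. For restricted against control, 0 of 12 elongation factors, 0 of 33 initiation factors, 0 of 44 genes for ribosome assembly and RNA polymerase I, 0 of 73 mitochondrial ribosomal proteins and 0 of 37 proteasome subunits passed. Over all probe sets tested 2% passed. Among 15 other genes with TOP mRNAs, 2 rose, Naca (0.3 ± 0.07, adjusted p of 0.039 in limma) and Vim (0.38 ± 0.08, adjusted p of 0.0273). Naca encodes a chaperone subunit at the ribosome and Vim the intermediate filament vimentin, an mRNA of connective tissue cells. Neither passed once the conflicting 1-week labels were swapped, after centring on array medians, or when either control array was left out. Naca also did not pass without the 10% or 20% CR array of 1 week, or the 10%, 20% or 30% CR array of 1 month. Vim also did not pass when the 20% CR array of either duration was left out. The 6 of 6 fibroblast markers that passed the filter had a summed signal at 1 week of 14100 in the control against 14900 to 16300 under CR, and at 1 month of 8780 against 8260 to 11600; their part in the result was not tested.

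Along the level of CR, 2 of 21 genes of the mTORC1, S6 kinase and MYC list passed, against 2% of all probe sets tested. Eif4ebp1 encodes a repressor of the cap-binding initiation factor, and mTORC1 inactivates this repressor. Its signals were 480.4, 496.5, 629, 641.9 and 725.7 from control to 30% CR at 1 week and 480.8, 569.6, 609.9, 650.5 and 768.7 at 1 month. The signal was higher at each further level in both durations. Eif4ebp1 rose by 0.2 ± 0.03 per 10 percentage points (adjusted p of 0.00345 in limma), and this call held in 15 of 15 settings, which were 4 scalings, the exchanged labels and each array left out.

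Rps6kb1, the S6 kinase that phosphorylates Rps6, had signals of 534.3, 437.8, 414.2, 328.4 and 354.6 at 1 week and 357.5, 303.8, 312.8, 292.1 and 267.4 at 1 month. It fell by 0.16 per 10 percentage points (-0.16 ± 0.04, adjusted p of 0.0327 in limma), a call that held in 6 of 15 settings, with slopes between -0.18 and -0.13. Apart from these, Vim was the only gene of the 7 lists to pass for the slope (0.14 ± 0.03, adjusted p of 0.0308 in limma), in 7 of 15 settings.

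Between durations, 7 of 21 genes of the mTORC1 list rose at 1 month on centred values, with a median of 0.2, against 8.79% of all probe sets called. On the deposited scaling 4 rose and 5 fell, and the median was -0.09, against 33.9% of all probe sets called. Sesn1, which encodes the leucine and stress sensor sestrin 1, rose by 0.67 ± 0.1 (adjusted p of 0.000563 in limma). Eif4ebp2, which encodes a second repressor of the cap-binding initiation factor, rose by 0.64 ± 0.1 (adjusted p of 0.00108 in limma). The calls of Sesn1, Eif4ebp2, the MYC antagonist Mxi1 and the initiation factor Eif4g3 (0.59 ± 0.11) passed in all 15 settings, but on the deposited scaling the estimates were 0.37 for Sesn1, 0.34 for Eif4ebp2, 0.2 for Mxi1 and 0.29 for Eif4g3. Eif4ebp1, Akt1s1 and Max did not pass on the deposited scaling, Eif4ebp1 and Akt1s1 also not without the 5% or 20% CR array of 1 week or the 5% or 10% CR array of 1 month, and Ddit4 not without the 10% or the 20% CR array of 1 week. Eef2, the factor that moves the ribosome along the mRNA, rose by 0.35 ± 0.07 (adjusted p of 0.00708) but not on the deposited scaling, where it was at 0.05. In the other lists the calls for duration were Eif5b, Mrpl58, Psmd1 and Psmd11, which rose, and Vim, which fell; each of these failed in at least 5 of 15 settings. Of the ribosome assembly genes, 0 of 44 passed for duration on centred values, and 5 rose without the 1-week control array. On the deposited scaling, where the median of all probe sets was -0.21, 16 of these 44 fell, as did 7 of 12 elongation factors, 19 of 33 initiation factors, 43 of 73 mitochondrial ribosomal proteins and 22 of 37 proteasome subunits.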

How the data were processed

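Total RNA of gastrocnemius pools was hybridized to Affymetrix rat genome arrays. The authors deposited MAS5 signal intensity values on a linear scale, 1 per probe set and array (submitters' processing notes; a version is not given in the sources used here), without detection or change calls. Scaling by array was the authors'. The number of arrays limits the precision.

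A floor of 0.1 was applied before log2 was taken. Control probe sets were left out, and 15521 of 31042 were tested. Symbols came from the platform annotation; 45 of 47 members were matched to RefSeq by gene identifier. Linear models used limma 3.58.1 in R 4.3.3 (lmFit, eBayes with trend), with Benjamini-Hochberg adjustment over all probe sets tested and a threshold of 0.05. Since each group had 1 array, the spread is that around the model, with 7 residual degrees of freedom (6 for the interaction, 5 for restricted arrays alone). Duration was fitted on values centred on array medians. Probe sets of the same signal range were the 131 tested, without ribosomal proteins, whose mean log2 signal lay between 11.25 and 11.86, the middle quartiles of the members. The members and lists were chosen with earlier results of these data known.

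Named members were those that passed for restricted against control, the slope and the interaction. Where fewer than 3 passed, the 4 with the smallest p were named. The stalk proteins, Rps6, members with a paralog, and the 5 brightest and 5 dimmest were named besides, where measured. Rps27a and the stalk protein Rplp2 were also to be named but had no probe set among those read here. For duration the rule named only members that passed, so others named there were chosen after their values were seen. Up to 2 genes a list, those with the smallest p, were to be named, and further list genes that passed are named besides. Scripts were tested on simulated data. Alternatives were quantile and cyclic loess normalization, array medians, other filters, log2 of signal plus 32, no trend, all probe sets of a gene averaged, ranks or factors of the level, restricted arrays alone, exchanged labels, other minimum ratios and leaving out each array. The fits within 1 duration, the restricted arrays alone under other scalings, and the differences between Rpl3 and other members were chosen after seeing the data. The change calls of the study's methods were not used here.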

Additional observations from a re-analysis of the deposited data

Results flagged for a closer look

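For 6 of 43 members, all 4 restricted arrays of 1 week lay on one side of control and all 4 of 1 month on the other. This pattern was found for 14% of the members, 19.1% of the equally bright probe sets and 8.67% of all probe sets tested. Rpl7a, Rpl26, Rplp0, Rpl18 and Rpl13a were above control at 1 week and below it at 1 month, with a difference between the durations of -0.2, -0.23, -0.25, -0.24 and -0.28 log2. Rpl39, on a dim probe set, was below control at 1 week and above it at 1 month, with a difference of 1.7. None of these differences passed as an interaction in limma, where the adjusted p ran from 0.702 for Rpl39 to 0.796 for Rpl7a. After centring on array medians 2 members had this pattern.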

How the results depend on the processing

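No paired analysis was possible because each group has 1 array and so no replicate numbers to pair. For duration, arrays of the same level of CR were also blocked by level, which left 0 members called and the median at 0.06, with 927 of all probe sets called. No member passed for restricted against control, the slope or the interaction under any alternative run, and without a control array the interaction could not be fitted. For duration, where no member passed, 1 fell (Rpl3) with quantile normalization and with cyclic loess, 7 fell with log2 of signal plus 32, 1 (Rpl7) with the mean of probe sets, and 37 on the deposited scaling, where 5263 of 15521 probe sets were called against 1365; with arrays left out the count was 0 to 1 (Rpl39 rose without the 1-week control) and the median 0.01 to 0.09. The median estimate for duration, 0.06, was -0.02 with cyclic loess, -0.24 on the deposited scaling and -0.12 with log2 of signal plus 32. On the deposited scaling, many estimates of members that had been above 0 fell below it. Among these were Rpl7a, Rps6 and Rpl7l1 at -0.27, Rpl26, Rpl7 and Rpl34 at -0.23, and Rps3a at -0.25. Also among them were Rplp0 at -0.28, Rpl3l at -0.29, Rpl12 at -0.19, Rpl6 and Rpl22 at -0.22, and Rpl13a at -0.18. For Rpl7 the mean of probe sets gave -0.34. The cause was not tested.

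For restricted against control, the median of -0.05 was 0.01 within 1 week and -0.14 within 1 month; with arrays left out it ran from -0.14 without the 1-week control to 0.01 without the 1-month control. Over all probe sets 311 were called here, but 1 after the labels were exchanged, 77 without the variance trend, 194 with averaged probe sets, 27 without the 1-week control and 112 without the 1-month control. For the slope 310 were called, but 196 after centring, 73 without the trend, 200 with averaged probe sets, 161 after the exchange, 38 in the restricted arrays alone and as few as 86 with an array left out (30% CR at 1 week). For duration, 813 were called without the trend, 873 with averaged probe sets and as few as 797 with an array left out (5% CR at 1 month). For the slope, the median of 0.02 was 0.07 in the restricted arrays alone and 0.09 there after centring on array medians, and ran from 0.02 to 0.05 with arrays left out, highest without the 1-month control. For the interaction, the median of -0.12 was 0.07 with quantile normalization and 0.09 after centring, and ran from -0.15 to -0.09 with arrays left out. After centring, the members' median ratios at 1 week were -0.26, -0.19, -0.05 and 0.08. At 1 week, 0 members were past a minimum ratio of 0.5 or after the exchange. At 1 month the count of 2 was 4 at a minimum of 0.15, and 1 at 0.5, with quantile normalization, with cyclic loess and after centring. Signals near the filter carry little above background, which limits Rpl39, Rpl26l1 and Rps4y2.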
